A study of Mus musculus with 13 samples.

Results

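The genes described here encode the protein subunits of the cytosolic ribosome, followed from the mouse oocyte to the mature egg. They were taken from the table of counts per gene by name: symbols that begin with Rpl or Rps and a number, or with Rplp0, Rplp1 or Rplp2, together with Rpsa. Symbols of pseudogenes marked -ps and of the Rps6k kinases were left out. The rule found 93 of the 54232 genes in the table, spread over 19 chromosomes with 15 of them on chromosome 7. By subunit, 52 belong to the large 60S subunit, 3 form the 60S stalk, 37 belong to the small 40S subunit, and 1, Rps19bp1, encodes a protein that binds a ribosomal protein and is no subunit itself. RefSeq lists 5 of the 93 (Rps4l, Rps12l1, Rpl6l, Rps3a2 and Rps3a3) as pseudogenes despite their names. Of the 93, 91 passed the filter on low counts and were tested. Rps12l1 had no count in any library, and Rpl3l, a copy known from muscle, had counts in 1 GV Null library alone, at 0.0524 CPM (the count scaled to the effective depth of its library).

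RNA was sequenced from 13 pools of 25 cells each, from mice listed as C57BL6/J. Germinal vesicle (GV) oocytes are fully grown and arrested before the meiotic divisions, and were collected from superovulated females in medium with the phosphodiesterase inhibitor IBMX, which keeps them arrested. Metaphase II (MII) eggs were collected after an injection of hCG and are the ovulated, fertilizable product of maturation. Wild-type (WT) pools comprised 3 of GV oocytes and 3 of MII eggs. Null pools, 3 of GV oocytes and 4 of MII eggs, came from females without the long noncoding RNA Sirena1, a line in which Cas9 removed the promoter of that gene and which was then crossed to C57BL/6NCrl mice. The labels do not say how many founders the line had, nor which pools came from separate females, so p values measure the spread between these pools, which may be technical.

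Each ribosome carries a single copy of nearly every one of these proteins, and growing cells make the proteins in matched amounts. Their mRNAs are short, abundant and stable in most somatic cells. They begin with a tract of pyrimidines, the 5′ terminal oligopyrimidine (TOP) motif, through which mTOR signalling and the RNA-binding protein LARP1 set their translation and stability. A growing oocyte builds the ribosomes that the early embryo will use. The fully grown oocyte is transcriptionally silent, so that mRNA levels between the GV and MII stages change by decay and by shortening or lengthening of poly(A) tails. The labels name polyA RNA as the molecule sequenced, and with such RNA a shorter tail and fewer molecules cannot be told apart.

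The bases around the transcription starts are shown because these mRNAs are defined by a shared pyrimidine start. The genes below run from large falls between GV and MII to the largest gain. Each line gives 20 bases before and 15 bases from the RefSeq transcription start in build GRCm38.p6, on the strand of the gene. Capitals mark the longest run of C or T that touches the stretch from 5 bases before the start to 10 bases after it.
Rpl39, chrX:37085208-37085242, minus strand: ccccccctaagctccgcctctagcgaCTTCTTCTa
Rps13, chr7:116334176-116334210, minus strand: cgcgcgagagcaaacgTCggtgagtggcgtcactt
Rpsa, chr9:120127746-120127780, plus strand: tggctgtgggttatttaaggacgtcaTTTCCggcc
Rpl38, chr11:114668560-114668594, plus strand: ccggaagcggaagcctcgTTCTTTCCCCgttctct
Rps9, chr7:3704021-3704055, plus strand: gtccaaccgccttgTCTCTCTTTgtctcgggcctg
Rps27, chr3:90213634-90213668, minus strand: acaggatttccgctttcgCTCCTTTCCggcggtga
Rps6, chr4:86857353-86857387, minus strand: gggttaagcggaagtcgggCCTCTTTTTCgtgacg
Rps15a, chr7:118116133-118116167, minus strand: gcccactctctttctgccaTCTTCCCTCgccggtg
Rpl4, chr9:64173367-64173401, plus strand: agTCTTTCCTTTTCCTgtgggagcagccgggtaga
Rps27l, chr9:66946066-66946100, plus strand: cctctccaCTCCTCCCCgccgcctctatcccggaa
Among the 68 members found in the RefSeq table of starts, 27 had a run of 8 or more C or T touching that stretch (39.7%). Of the 27025 genes in it, 13.0% had one. A run so counted may lie wholly before the start, as those shown for Rpl4 and Rps27l do. On the opposite strand such a run was found in 3 of the 68 (4.41%), against 14.8% of all. A gene with several listed starts was counted where any of them held the run, and the lines above show the first, which matters for Rps27l with its 2. A listed start that is off by some bases hides a tract, and Rps13 and Rpsa are shown as the table has them.

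Total counts ran from 30867614 to 41285507 per library, and the detection limit of 3 counts, which covers counting error alone, lay at 0.0672 to 0.105 CPM. The deleted lncRNA stood at 2912 to 3092 CPM in GV WT, 23.3 to 26.4 CPM in GV Null, 4271 to 4693 CPM in MII WT and 35.9 to 45.0 CPM in MII Null pools, so each library matched its genotype label. Oocyte markers summed to 12541 to 18058 CPM. In 3 libraries, marker genes of the follicle's somatic cells, cumulus and granulosa, stood apart, in 1 of them on a subset of the markers. GV Null replicates 2 and 3 had sums of 710 and 326 CPM over the 28 markers listed, against 144 CPM in GV Null replicate 1 and 145 to 188 CPM in GV WT. The 18 markers below 1 CPM in MII WT eggs, chosen after their levels were seen, summed to 252 and 107 CPM in GV Null replicates 2 and 3, 13.0 CPM in GV Null replicate 1 and 10.7 to 27.4 CPM in GV WT. In eggs the 18 summed to 12.1 CPM in MII Null replicate 4 and 0.700 to 1.43 CPM in the other 6 libraries. Over all 28 markers that library, at 188 CPM, lay within the 167 to 195 CPM of the other eggs, so that it stood apart on the 18 alone. Of the 10 defining markers, Inha, Amh and Foxl2 had 0 counts in all 3 MII WT libraries. The rest had counts there, with means of 60.5 CPM for Nr5a2, 36.5 CPM for Cyp19a1 and 6.16 CPM for Col4a1. Fshr, Hsd3b1, Cyp11a1 and Inhba had means of 1.49, 1.46, 0.561 and 0.200 CPM in MII WT. More somatic cells and more RNA per somatic cell cannot be told apart in such pools. Between genotypes and in Null maturation, the main medians and single-gene values are also given without these libraries, and some of the counts.

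Ribosomal protein mRNAs fell when WT oocytes matured. Together the 93 genes held 0.569%, 0.541% and 0.621% of the counts in the 3 GV WT libraries and 0.150%, 0.147% and 0.138% in the 3 MII WT libraries, a 3.98-fold lower share in eggs. Of the 91 genes tested, 85 fell past an adjusted p of 0.05, 2 rose and 4 did not pass, where 22.8% of all 20143 genes tested fell and 19.9% rose (edgeR quasi-likelihood test, Benjamini-Hochberg adjustment). An unadjusted p under 0.05 was found for 88 of the 91 and for 49.6% of all genes. Their median log2 fold change was -2.75, which is 6.72-fold lower, beside a median of 0.0053 over all genes. In 86 of the 91, each MII WT library lay below each GV WT library, a pattern found in 30.1% of all genes. Falls of at least 8-fold were found in 36 members and in 3.60% of all genes.

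**Figure D1:**
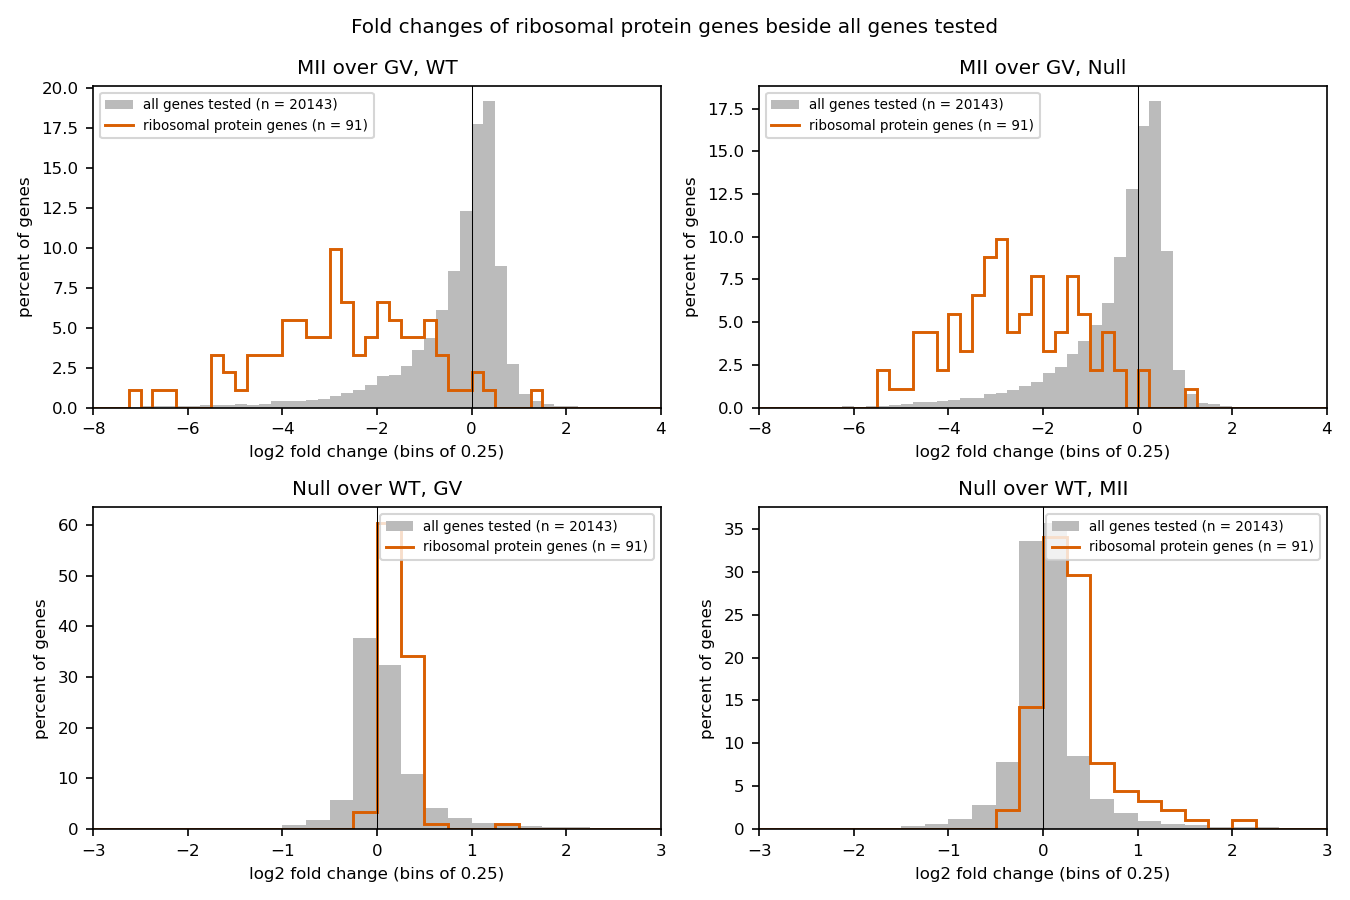
Distribution of log2 fold changes of the 91 ribosomal protein genes tested (orange line) and of all 20143 genes tested (grey), in percent of genes per bin of 0.25, for maturation in WT and Null (top) and for Null over WT in GV oocytes and MII eggs (bottom). The orange line lies left of the grey for maturation, with medians of -2.75 and -2.70, and slightly right of it for genotype, with medians of 0.20 and 0.24.

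The members differed widely in how far they fell. The 40S genes had a median log2 fold change of -3.18, with 34 of 36 lower, and the 60S genes including the stalk one of -2.57, with 50 of 54 lower. The quartiles over all 91 lay at -3.79 and -1.55. Across the 91 genes, the fold change and the level in GV WT oocytes had a Pearson r of 0.03 and a Spearman rho of 0.11, as a description over genes that share libraries.

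Among the largest falls was that of Rpl39 (ENSMUSG00000079641, chrX:37082518-37085222), which encodes a small 60S protein that lines the tunnel through which the new chain leaves the ribosome. Its levels were 115, 96.7 and 137 CPM in GV WT and 1.36, 1.34 and 1.02 CPM in MII WT libraries. No MII library came near a GV library, and the log2 fold change was -6.55 (SE of the fit 0.94, adjusted p = 0.000232, edgeR). Rps13 (ENSMUSG00000090862, chr7:116331507-116334190), a 40S protein, stood at 94.5, 92.1 and 121 CPM in GV WT and at 1.76, 1.07 and 1.14 CPM in MII WT libraries. Its fall was 77.3-fold (log2 -6.27, SE 0.87, adjusted p = 0.000202).

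Rpsa (ENSMUSG00000032518, chr9:120127766-120132369), a 40S protein also known as the laminin receptor, read 37.8, 38.6 and 42.0 CPM in GV WT and 1.13, 1.14 and 0.413 CPM in MII WT libraries. This was a 44.5-fold fall (log2 -5.47, SE 0.75). Rplp1, an acidic stalk protein that helps to recruit elongation factors, went from 69.1 ± 9.16 to 1.70 ± 0.267 CPM (SD, n = 3 and 3; log2 -5.34, SE 0.47). Rpl38, a 60S protein whose loss alters the axial skeleton of mice, went from 28.7 ± 3.55 to 0.733 ± 0.213 CPM (log2 -5.29, SE 0.41). Falls of more than 16-fold passed in 12 of 36 tested 40S genes and 6 of 54 tested 60S genes including the stalk. Among all 20143 genes tested, 389 had such a fall. The further members named here for large falls were 40S genes. Rps27a, which is made as a fusion to ubiquitin, had a log2 fold change of -5.20. Rps19, the gene most often mutated in Diamond-Blackfan anaemia, had one of -5.19, Rps3, which lies at the channel where the mRNA enters, one of -4.85, and Rps9 one of -4.64. These 9 genes had adjusted p values of 0.000232 or less in edgeR.

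**Figure D2:**
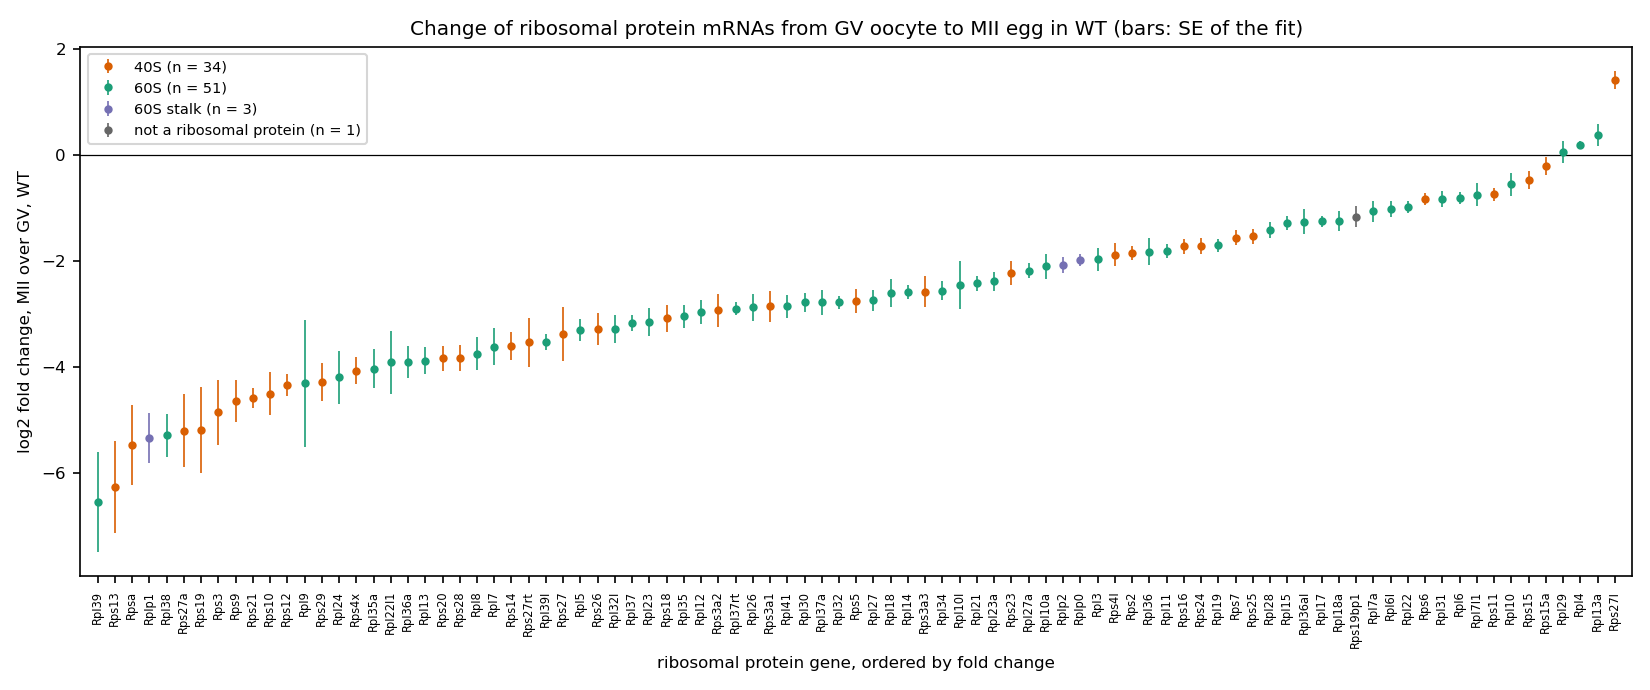
Log2 fold change from GV oocyte to MII egg in WT for 89 of the genes tested, in order of the fold change, coloured by subunit, with bars for the SE of the fit. Rpl39 and Rps13 are lowest in the plot at -6.55 and -6.27, and Rps27l is highest at 1.42.

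Other members picked by function and named here fell less far. The other stalk genes, Rplp0 and Rplp2, went from 71.7 ± 6.10 to 18.1 ± 2.31 CPM and from 32.8 ± 4.65 to 7.78 ± 0.870 CPM (log2 -1.98 and -2.08), beside -5.34 for their partner Rplp1. Rpl5 and Rpl11, which bind the smallest ribosomal RNA as a pair and can carry it to the p53 regulator MDM2, had log2 fold changes of -3.30 (SE 0.21) and -1.80 (SE 0.13). Rpl3, near the site of peptide bond formation, had one of -1.97, from 22.6 ± 1.64 to 5.77 ± 1.07 CPM. Rpl32 and Rpl37a had log2 fold changes of -2.78 each. Rps6, the classic substrate of the S6 kinases, read 59.2, 60.9 and 64.5 CPM in GV WT and 34.9, 35.1 and 33.8 CPM in MII WT libraries. Its fall of 1.78-fold (log2 -0.83, SE 0.11, adjusted p = 7.99e-06) was among the smallest that passed, and the libraries of the stages did not overlap.

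A few members did not pass as lower, and Rps15, which did, is given beside them. Rps27l (ENSMUSG00000036781, chr9:66944624-66949522), a copy of Rps27 known as a p53 target, read 13.4, 12.0 and 15.6 CPM in GV WT and 34.1, 29.6 and 46.1 CPM in MII WT libraries. Each egg library was above each oocyte library, and the gene rose 2.68-fold (log2 1.42, SE 0.17, adjusted p = 3.86e-06). Rpl4 (ENSMUSG00000032399, chr9:64173387-64178562), a 60S protein with a long loop in the exit tunnel, read 220, 219 and 231 CPM in GV WT and 255, 252 and 261 CPM in MII WT libraries. These levels do not overlap, yet the log2 fold change of 0.20 (SE 0.07, adjusted p = 0.0403) depended on the scaling, was -0.0034 with library size alone and did not pass once any single GV WT or MII WT library was left out (adjusted p = 0.0580 to 0.120). Rpl13a, with a log2 fold change of 0.38 (adjusted p = 0.156), Rpl29, with 0.06, and Rps15a, with -0.20 (adjusted p = 0.353), did not pass, and their oocyte and egg libraries overlapped. For Rpl10, a late-joining 60S protein that completes the catalytic site, the log2 fold change was -0.55 (SE 0.22, adjusted p = 0.0651, edgeR). It passed as lower with DESeq2 (adjusted p = 0.0488), library size alone (0.0263), the filter of 5 CPM (0.0296), no filter (1.99e-07) and a fit of the compared groups alone (0.0396). Rps15 fell by 0.46 on the log2 scale (adjusted p = 0.0385). Its call was lost when GV WT replicate 3, MII WT replicate 1 or MII WT replicate 3 was left out (adjusted p = 0.0658 to 0.182).

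**Figure D3:**
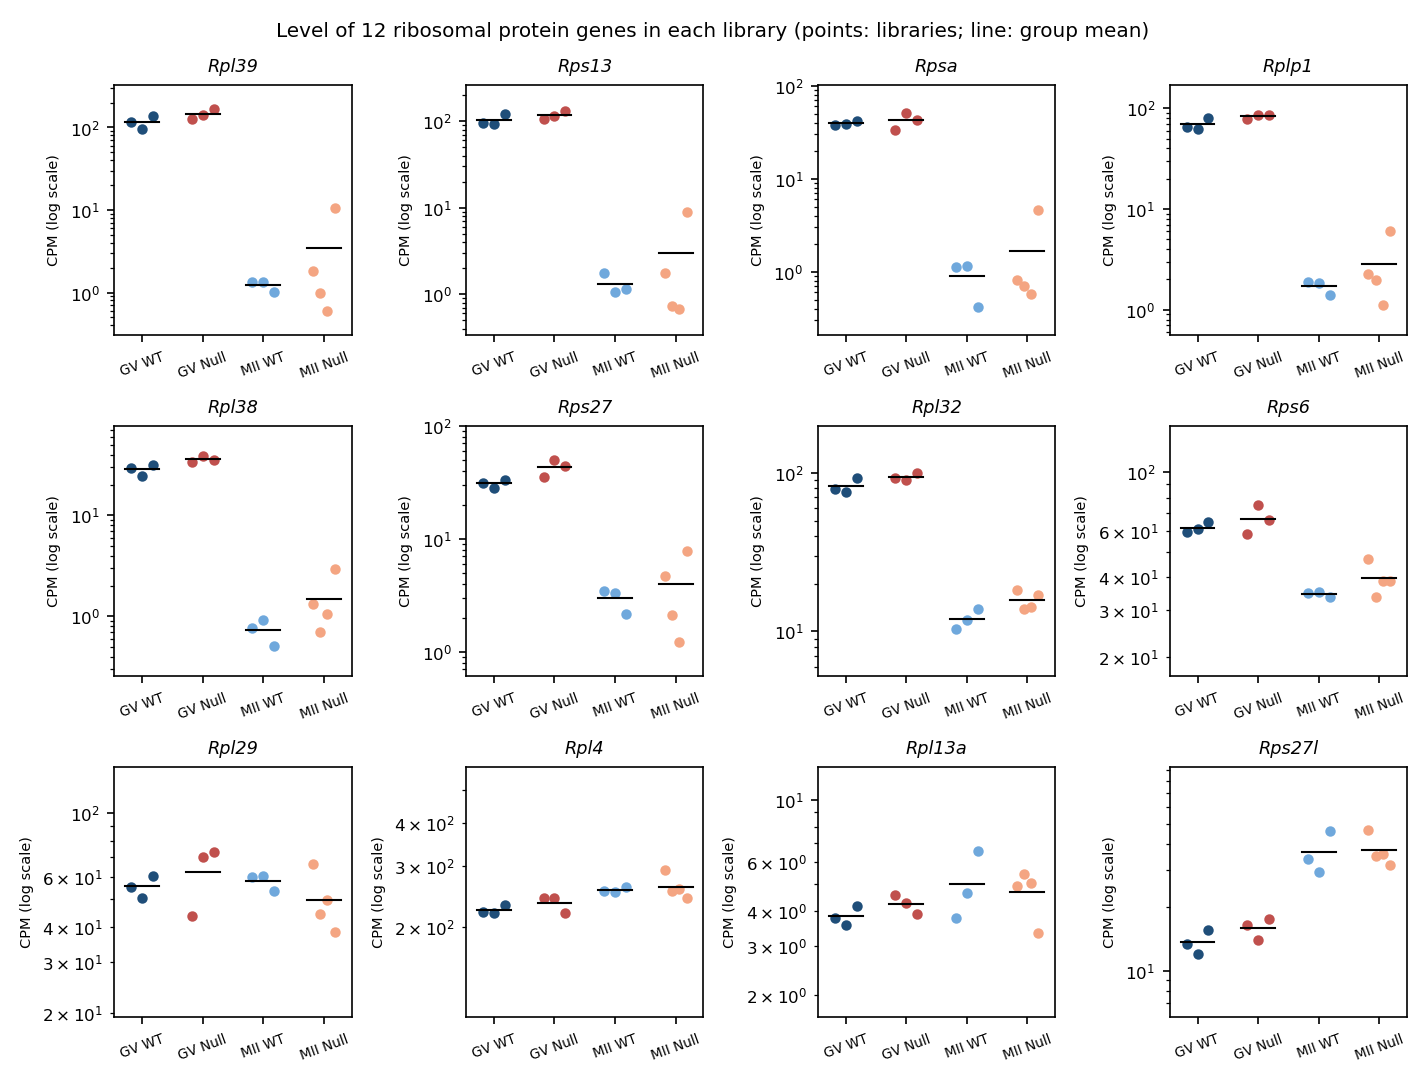
Level of 12 members in each of the 13 libraries, in CPM on a log axis, with points for libraries and lines for group means. Rpl39, Rps13, Rpsa, Rplp1 and Rpl38 are far lower in MII than in GV libraries, with MII Null replicate 4 above the other eggs, whereas Rpl4 and Rpl13a differ little between stages and Rps27l is higher in MII libraries.

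Several ribosomal proteins have a second gene, and 8 such pairs with counts were compared by the log2 ratio of the copy to its parent in each library. Rps27l stood 4.89 log2 units higher against Rps27 in eggs than in oocytes, averaged over genotypes (adjusted p = 0.00286, two-sided exact permutation test over 700 assignments within genotype, Benjamini-Hochberg over 8 pairs). Rps27 itself fell from 30.8 ± 2.69 to 2.97 ± 0.710 CPM in WT (log2 -3.38), while Rps27l rose. Rpl39l, a copy best known from male germ cells, fell from 17.6 ± 2.10 to 1.53 ± 0.0735 CPM (log2 -3.52, SE 0.15), less than Rpl39, so that its ratio to Rpl39 was 2.97 units higher in eggs (adjusted p = 0.00381). The ratios of Rpl36al to Rpl36a, Rpl7l1 to Rpl7 and Rps4l to Rps4x were also higher in eggs, by 2.62, 2.63 and 1.93 units (adjusted p = 0.00286, 0.00286 and 0.00381). Another 2 pairs went the other way. Rpl22l1 fell from 3.02 ± 0.392 to 0.195 ± 0.207 CPM (log2 -3.91) where Rpl22 fell from 35.7 ± 1.20 to 18.0 ± 3.38 CPM (log2 -0.98). The ratio of Rpl22l1 to Rpl22 was lower by 3.18 units (-3.18, adjusted p = 0.00286), with -3.78 in WT and -2.59 in Null. The size in WT is imprecise, since Rpl22l1 read 0, 0.172 and 0.413 CPM in MII WT libraries. The detection limits there were 0.0993, 0.103 and 0.0953 CPM. For Rpl10l, an autosomal copy of the X-linked Rpl10 near 1.04 CPM in GV WT, the change was -1.49 (adjusted p = 0.0049). It was -1.88 in WT and -1.10 in Null, and this size is imprecise as well. The ratio had an SD of 0.93 in MII WT. In MII Null, Rpl10l read 0.373 CPM in replicate 4 and a median of 0.210 CPM in replicates 1 to 3. Rps27rt changed by -0.05 against Rps27 (adjusted p = 0.359), and these near-identical genes may share reads. The test stands on 7 eggs and 6 oocyte pools and its smallest possible p is 0.00143.

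Many members have processed pseudogenes, and it is not known here how reads that fit several places were counted. The 300 named pseudogenes in the table held counts equal to 54.6% to 61.6% of those of the members in each library. Of the 197 tested, 177 fell in WT and 0 rose, with a median of -2.36. Across the 55 members with a tested pseudogene, the member's log2 fold change and the median of its pseudogenes had a Pearson r of 0.73 (a description across genes that may share reads). The 30 tested members without a named pseudogene had a median of -2.91 and the 61 with one a median of -2.42. Levels of members with such copies are therefore uncertain.

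Maturation in Null oocytes gave nearly the same picture. The share of counts went from 0.578%, 0.701% and 0.685% in the GV Null libraries to 0.185%, 0.133%, 0.126% and 0.168% in the MII Null libraries, 4.28-fold lower. Of 91 members 86 fell, 1 (Rps27l) rose and 4 did not pass, with 26.9% of all genes lower and 22.1% higher (edgeR), and the median was -2.70. Each MII Null library lay below each GV Null library for 85 members and for 25.2% of all genes. Over the members, the fold changes of WT and Null, which share no library, had a Pearson r of 0.98 and a Spearman rho of 0.99, and over all genes tested 0.86 and 0.83. Rps27l rose 2.33-fold in Null (log2 1.22, SE 0.16, adjusted p = 9.25e-06).

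The test of the difference, Null maturation minus WT maturation, found no member (0 of 91), with 0.00496% of all genes lower and 0.00% higher, and 0 members reached an unadjusted p under 0.05, where 3.38% of all genes did (edgeR). DESeq2 also found 0. Without a filter on low counts, 5 members passed as higher, where 43 of the 39595 genes then tested did and 114 passed as lower. Small p values were those of Rps20 (0.61, interval 0.01 to 1.20), Rpl6 (-0.30, interval -0.61 to 0.01), Rps9 (0.86, interval -0.16 to 1.87) and Rpl38 (0.71, interval -0.29 to 1.71), where the values are log2 differences with approximate 95% intervals from the SE of the fit, which are narrower than the test allows. All 4 had adjusted p = 0.999. Without MII Null replicate 4 the differences were 0.40 for Rps20, -0.28 for Rpl6, 0.38 for Rps9 and 0.20 for Rpl38, and without GV Null replicates 2 and 3 as well they were 0.47, 0.0547, 0.36 and 0.27. With all libraries, the intervals for Rps20, Rps9 and Rpl38 leave room for differences of more than 2-fold.

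MII Null replicate 4 stood apart for the members with the largest falls. Rpl39 read 1.81, 0.980, 0.604 and 10.5 CPM in MII Null replicates 1 to 4, and Rps13 read 1.76, 0.735, 0.667 and 8.98 CPM. In both, the fourth library stood far above the other 3, which lay in the range of MII WT or close to it. This library was the highest of 4 for 46 of the 91 members and for 27.4% of all genes. Replicate 1 was the highest for 41 of the 91 (the share of all genes was not counted). Over the 9 members named above for large falls in WT, replicate 4 exceeded the median of the other 3. The excess was 4.87% to 12.9% of the GV Null mean, with a median of 9.25%. Rpl39l did not share this pattern, at 1.54 to 2.10 CPM in the 4 libraries, with replicate 1 the highest. The 18 low-background somatic markers summed to 12.1 CPM in this library, and their part in the excess was not tested.

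Without MII Null replicate 4, 86 members still passed as lower in Null, 1 passed as higher, and the median was -2.83. Of the 20123 genes then tested, 5741 passed as lower and 4288 as higher. When GV Null replicates 2 and 3 were left out as well, so that 1 GV Null library remained, the median was -2.71. Without replicate 4 alone, the fall in Null moved by more than 1.5 times for 10 members (the share of all genes was not counted). That of Rpl39 went from -5.38 to -6.97 (beside -6.55 in WT) and that of Rps13 from -5.28 to -6.77 (-6.27 in WT). Others were Rpl9, Rps19, Rpsa, Rps27a, Rps3, Rpl24 and Rplp1. Rpl9 moved from -4.19 to -5.87, beside -4.31 in WT.

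**Figure D4:**
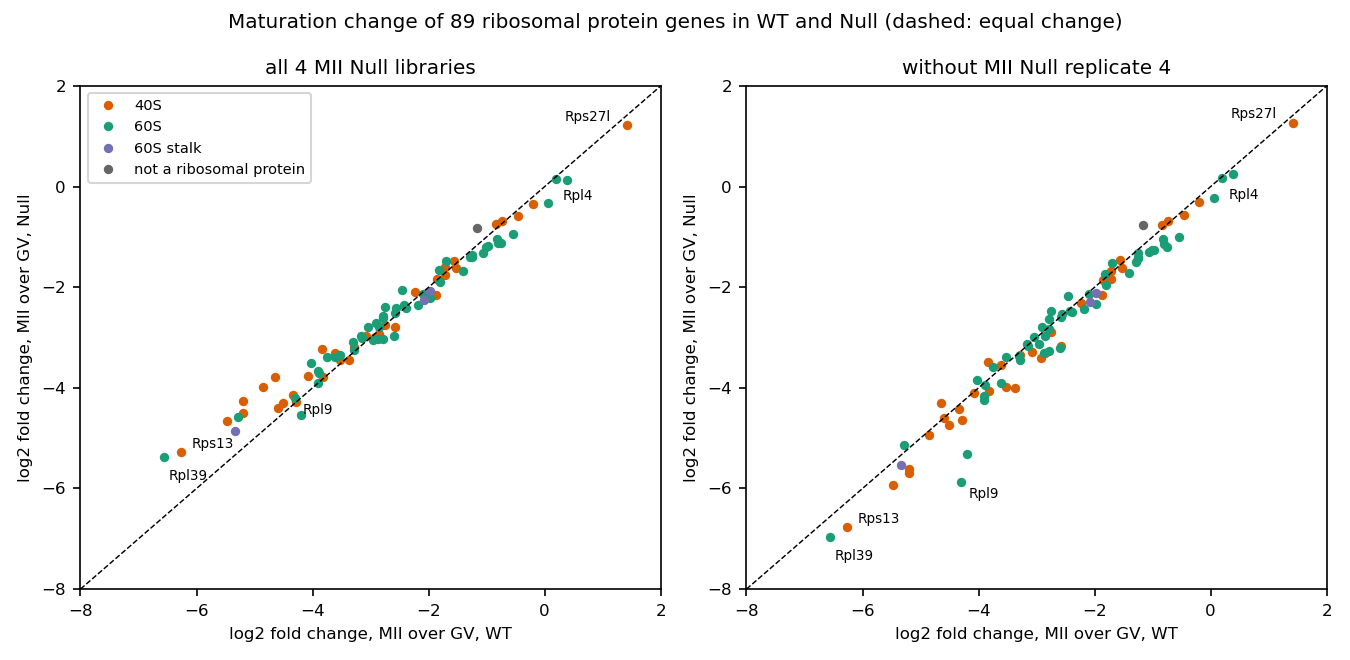
Log2 fold change from GV to MII in Null (vertical) against WT (horizontal) for 89 of the genes tested, with all 4 MII Null libraries (left) and without MII Null replicate 4 (right), and a dashed line where both are equal. Rpl39 is at -6.55 in WT and -5.38 in Null on the left and at -6.97 in Null on the right.

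In GV oocytes no member passed the test between genotypes (0 of 91), where 0.0298% of all genes passed as lower in Null and 0.0248% as higher (edgeR), and DESeq2 also found 0. The members nonetheless leaned one way: 88 of 91 had a log2 fold change above 0, against 53.7% of all genes, with a median of 0.20 beside 0.0177 over all genes. The summed level was 5264, 4989 and 5846 CPM in GV WT and 5486, 6246 and 6284 CPM in GV Null libraries. Null replicates 2 and 3 lay above all WT libraries, and Null replicate 1 lay among them. At an unadjusted p under 0.05 there were 6 members (6.66% of all genes). In 14 members each Null library was above each WT library (6.83% of all genes), and in 1, Rpl5, each was below (5.93%).

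The 2 libraries with the higher sums were those with many somatic markers. Of the 28 markers, 24 were above all GV WT libraries in both Null replicates 2 and 3, and 4 were in Null replicate 1. When GV Null was represented by replicate 1 alone, assumed to vary like the other groups, 60 of 91 members were above 0 (50.3% of all genes) and the median was 0.08. GV WT replicate 3 had the lowest sum of low-background markers in WT, 10.7 CPM, and the highest WT sum of members. The part of somatic RNA in the lean was not tested.

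The smallest p in GV oocytes was that of Rpl37a, a 60S protein, at 25.4, 22.3 and 30.6 CPM in WT and 31.5, 45.4 and 44.6 CPM in Null libraries. Replicate 1 of Null was just above the highest WT library and the other 2 Null libraries were well above it (log2 0.63, SE 0.21, adjusted p = 0.671, edgeR). With Null replicate 1 alone the value was 0.27. The next members were Rpl22, Rpl27a, Rplp2, Rpl31 and Rps25, with log2 fold changes of 0.29 to 0.34 and adjusted p values of 0.711 to 0.734. With Null replicate 1 alone these were 0.24 for Rpl22, 0.013 for Rpl27a, 0.16 for Rplp2, 0.0096 for Rpl31 and 0.13 for Rps25. Rpl9, named after its values were seen, read 4.97, 4.16 and 4.17 CPM in WT and 4.30, 22.3 and 10.9 CPM in Null libraries, high in the libraries with many markers (log2 1.49, adjusted p = 0.772, and -0.05 with Null replicate 1 alone). Rpl9 was also high in MII Null replicate 4, at 2.08 CPM against 0.157 to 0.254 CPM in the other 3. Without a filter on low counts 3 of 92 members, Rpl37a among them, passed as higher in GV Null, where 600 of the 39595 genes then tested did.

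**Figure D5:**
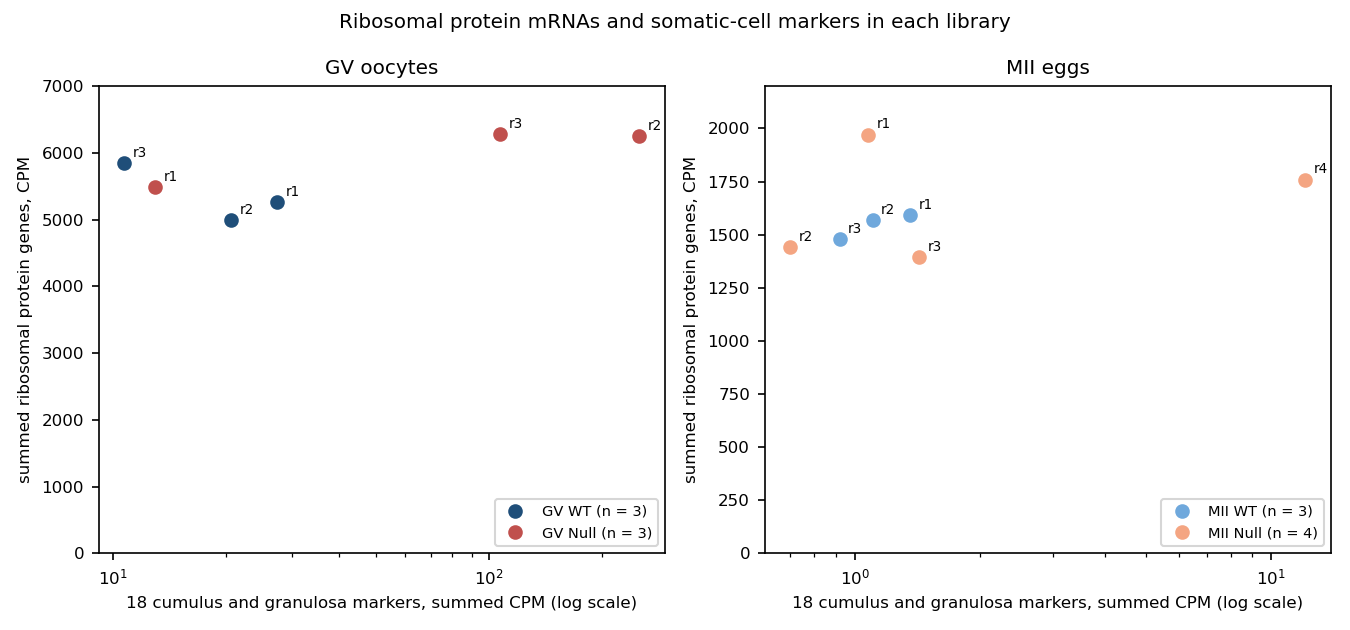
Summed level of the 93 ribosomal protein genes (vertical, CPM) against the sum of the 18 cumulus and granulosa markers below 1 CPM in MII WT (horizontal, log axis, CPM), with a point per library, for GV oocytes (left) and MII eggs (right). GV Null replicates 2 and 3 are high in both sums, at 6246 and 6284 CPM of members, and MII Null replicate 4 has the highest marker sum among eggs, 12.1 CPM, while MII Null replicate 1 has the highest member sum, 1971 CPM.

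In MII eggs no member passed either (0 of 91), where 0.0397% of all genes were lower and 0.0149% higher in Null (edgeR), and DESeq2 also found 0. Fold changes were above 0 for 76 of 91 members (53.2% of all genes), with a median of 0.24 beside 0.0142. The summed level was 1594, 1570 and 1478 CPM in WT and 1971, 1440, 1393 and 1759 CPM in Null libraries. Null replicates 1 and 4 were above all WT libraries and replicates 2 and 3 below them. Without replicate 4, 61 of 91 were above 0 and the median was 0.12. An unadjusted p under 0.05 was found for 10 members (6.35% of all genes). Rps16 alone had each Null library above each WT library (2.94% of all genes), and 0 members had each below (3.13%).

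The smallest p in eggs was that of Rpl32, a 60S protein, at 10.4, 11.8 and 13.9 CPM in WT and 18.2, 13.8, 14.3 and 16.9 CPM in Null libraries. The groups overlapped by a single Null library, with a log2 fold change of 0.39 (SE 0.12, interval 0.16 to 0.63, adjusted p = 0.571). Rps20 had 0.71 (0.50 without replicate 4), Rpl19 0.35, Rps16 0.38, Rpl27 0.50 and Rpl38 1.04 (0.53 without replicate 4), with adjusted p values of 0.637 to 0.768. Without replicate 4, Rpl32 had 0.38, Rpl19 0.34, Rps16 0.34 and Rpl27 0.47. Without a filter on low counts, 18 members passed as higher in MII Null, where 232 of the 39595 genes then tested did. For Rplp0, with an interval of -0.19 to 0.21, and Rpl4, with one of -0.11 to 0.17, a change of 1.5-fold lies outside the 95% interval.

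Genes that work with the ribosomal proteins were followed from lists of known function. Among the partners, Fau, which encodes a 40S protein fused to a ubiquitin-like protein, fell by 2.73 on the log2 scale in WT, from 42.3 ± 4.19 to 6.39 ± 0.917 CPM. Rack1, a scaffold on the 40S head, fell by 0.74. Of 17 listed genes whose mRNAs carry TOP motifs, mostly translation factors, 10 fell and 3 rose in WT, with a median of -0.69. The elongation factor subunits Eef1d and Eef1b2 fell by 2.15 and 1.72, and the initiation factor subunit Eif3e by 1.61. Npm1 and Nap1l1, which are not translation factors, rose by 0.56 and 0.27, and the initiation factor Eif4b by 0.20. Eef1a1 and Eef2, the main elongation factors, had 0.12 and -0.0018 (adjusted p = 0.157 and 0.988). Background shares are those given above for WT maturation, 22.8% lower and 19.9% higher.

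Of 17 regulators of these mRNAs in the mTOR and LARP pathway, 1 fell and 6 rose in WT. Tsc2, an inhibitor of mTORC1, fell by 1.01, Larp4 and Akt1 rose by 0.47 and 0.56, and Larp1 had -0.29 (adjusted p = 0.174). Of 54 ribosome biogenesis factors tested, 18 fell and 9 rose, with a median of -0.0072. Nhp2, a protein of the box H/ACA particles, fell by 2.10, and Eif6, which keeps new 60S subunits from joining, by 1.41, while Rsl1d1 rose by 0.51. Subunits of the mitochondrial ribosome, a separate set of genes, fell in 56 of 80 and rose in 3 of 80 tested, with a median of -0.82, beside -2.75 for the cytosolic set. In these lists no gene passed between genotypes at either stage (0 genes, edgeR). At an unadjusted p under 0.05 there were at most 2 genes of a list in GV oocytes (6.66% of all genes). In eggs there were at most 7, of the 80 mitochondrial ones (6.35% of all genes). Of the cumulus and granulosa markers, 9 of 25 tested fell and 2 rose in WT (22.8% and 19.9% of all genes), with a median of -3.29. In Null 17 fell and 1 rose (26.9% and 22.1% of all genes), with a median of -3.63. Their summed level over all 28 was 145 to 188 CPM in GV WT and 169 to 175 CPM in MII WT libraries. Most of it came from Nr5a2, Cdh2 and Cyp19a1, with means of 54.8, 37.5 and 27.7 CPM in GV WT. In MII WT these had 60.5, 51.9 and 36.5 CPM. The 18 markers chosen for low levels in MII WT summed to 10.7 to 27.4 CPM in GV WT and 0.921 to 1.36 CPM in MII WT. The part of the markers' cells in the members' fall was not tested.

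The falls were also set beside the start motifs. The 27 members with a run of 8 or more pyrimidines near the listed start had a median log2 fold change of -2.59 in WT. The 40 tested members without one had a median of -2.86. The motif CCGGAAG, which matches ETS family and GABPA sites, was found on either strand in the 300 bases around the start in 26 of 68 members (38.2%) and in 9.93% of all 27025 genes, with medians of -2.71 in tested members with it and -2.78 without. The motif GCCATCTT, which matches YY1 sites, was found in 6 of 68 (8.82%) and in 3.19% of all genes. The 6 with it had a median of -0.87 (range -4.03 to 0.38). The 61 without it had one of -2.85 (range -6.55 to 1.42). These matches describe letters, not sites, and no test was made.

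Genes with a mean of at least 5 CPM were ranked over the 13 libraries by Pearson r with the members' mean log2(CPM + 1). Members, pseudogenes of members and genes with Gm or Rik names were left out of the ranking. Chchd2, which encodes a small mitochondrial protein, came first with r = 0.998 and fell by 4.41 on the log2 scale in WT, from 166 ± 15.7 to 7.85 ± 1.09 CPM. The next were Uqcrq, a subunit of respiratory complex III, Atp5o and Atp5e, subunits of ATP synthase, and the pseudogene Chchd2-ps, with log2 fold changes of -3.82, -2.69, -5.56 and -3.53 in WT. The correlation rests mostly on the gap between the stages, since libraries of the same stage lie close together.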

How the data were processed

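RNA-seq read counts of 13 libraries were analysed, each from a pool of 25 mouse oocytes or eggs, with 65 bp single-end reads. The authors deposited 1 table of raw, unscaled counts for 54232 genes (Ensembl 93, by the name of the deposited table). The submitters' processing notes list STAR 2.5.3a, bedtools 2.26.0 and build GRCm38.p6. The sources used here do not name the counting tool, its strand setting or its treatment of multimapped reads, so reads shared with pseudogenes, copies or antisense genes cannot be assigned. The Renilla spike-in was not analysed here, so levels are relative to the other RNAs of a library.

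A name table gave symbols for 54079 IDs and none for 153, and all 93 members matched RefSeq genes of GRCm38.p6, from which coordinates were taken. The fit was 1 edgeR model (version 4.0.16, R 4.3.3) of 4 groups, with TMM factors, filterByExpr by group (20143 genes left; 14637 of those left out had no count), and the robust glmQLFit with two-sided glmQLFTest. Benjamini-Hochberg adjustment ran over all genes tested, with a threshold of 0.05. Levels are TMM-scaled CPM. The log ratios of 8 pairs of copies were compared with exact permutation tests.

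The members, lists and tests were chosen with earlier results of these data known, so none is independent evidence. Named were members picked by function, copies of other members, the 10 lowest and 8 highest of WT maturation with at least 5 CPM, and those with the smallest p in each other comparison, except some genes that are not reported here by name and are not drawn singly, though they stay in every fit and count. Rpl9, Rpl24, Rps7, the parent genes of copies and further genes of the other lists were named after their values were seen. Alternatives covered scaling, filtering, DESeq2 1.42.0, a minimum fold, a replicate block, fewer groups and left-out libraries. Replicate numbers were not treated as pairs, since deviations of same-numbered libraries correlated between -0.09 and 0.22 and the labels do not tie them. No 2 libraries agreed within sampling noise (chi-square per degree of freedom at least 5.37). Reads carry no molecular identifiers, and detection limits cover counting error alone.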

Additional observations from a re-analysis of the deposited data

Results flagged for a closer look

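Within the 4 MII Null libraries, the levels of 89 tested members were searched for 1 library far from the rest, where the gap from the highest or lowest library to the nearest, divided by the whole range, exceeded Dixon's 95% critical value. Chance gives such a gap in about 1 in 20 groups, and 11 of the 89 (12.4%) had one, beside 7.53% of all genes tested. In 8 of the 11 replicate 4 was the high library, a pattern found in 3.07% of all genes tested. The gap was 0.950 of the range for Rpl9, 0.941 for Rpsa, 0.939 for Rps27a and 0.882 for Rps3. It was 0.878 for Rpl39, 0.869 for Rps13, 0.863 for Rps19 and 0.863 for Rpl22l1. In the other 3 replicate 1 was the high library. Rps25 read 18.9 CPM there and 13.1 to 13.7 CPM in the others (gap 0.890), Rps7 44.7 CPM against 28.7 to 31.1 CPM (gap 0.850), and Rps15 43.1 CPM against 26.9 to 29.5 CPM (gap 0.844). The sum of the 18 low-background cumulus and granulosa markers, a subset chosen after its levels were seen, also had replicate 4 as its high library, at 12.1 CPM, with a gap of 0.936. The sum of all 28 markers had no such gap (0.741), and replicate 2 was highest there, at 195 CPM against 188 CPM in replicate 4.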

How the results depend on the processing

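Over the alternatives run, 251 of 270 counts and medians kept their value within the set limits, and 48 of 67 results for single genes kept direction and call. The number of members higher in WT eggs went from 2 to 1, by the loss of Rpl4 each time, under RLE scaling, library size alone, no filter, the filter of 5 CPM, the minimum of 1.5-fold and DESeq2, and was 1 without each WT library in turn. The number higher in Null eggs, 1, became 2 with DESeq2 and ranged from 1 to 2 with single libraries left out. The WT median was -2.95 with library size alone and -2.88 with the 5 CPM filter, and all-gene medians moved to -0.20 in WT and -0.28 in Null with library size alone, to which changes there are relative. There 5898 genes were lower and 1831 higher in WT (4595 and 4014 with TMM), and 7306 and 1985 in Null (5411 and 4456). With no filter on low counts, 3 members were higher in GV Null, 18 in MII Null and 5 in the difference of maturation, in place of 0. Direction turned with library size alone for Rpl13a in Null (-0.091), Rpl4 in WT (-0.0034) and Null (-0.073), and Rpl29 in WT (-0.14). With the 5 CPM filter it turned for Rpl29 in WT (-0.076) and Rpl4 in Null (-0.00121). With GV Null replicate 1 as the lone GV Null library it turned for Rpl29 in Null (0.19) and the difference for Rpl6 (0.0551), and so it did with that setting and MII Null replicate 4 also left out, chosen after seeing the data (0.30 and 0.0547). The cause was not tested. With the replicate block, 84 members were lower and 2 higher in WT (median -2.75), 86 and 1 in Null (-2.82), 0 passed between genotypes and medians were 0.20 in GV, 0.09 in MII and -0.11 for the difference. Rps15 in WT lost its call there (adjusted p = 0.0762, edgeR). Setting aside GV Null libraries leaves the WT libraries as they are and was not run for WT maturation, and DESeq2 gave no adjusted p for Rps13. Levels of 0.413 to 1.76 CPM of Rpl39, Rps13 and Rpsa in WT eggs rest on few counts, which limits the precision of the largest falls. The same holds for Rpl22l1, at 0 to 0.413 CPM in WT eggs, and for its ratio to Rpl22.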

Other observations

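The named pseudogenes of ribosomal protein genes leaned the same way as the genes themselves between genotypes. Of 197 tested, 178 had a log2 fold change above 0 in GV Null against WT (53.7% of all genes), with a median of 0.15. In MII Null against WT 151 did (53.2% of all genes), with a median of 0.21. At either stage 0 passed the edgeR test. An unadjusted p under 0.05 was found for 4 in GV oocytes (6.66% of all genes) and for 17 in eggs (6.35% of all genes). The mitochondrial ribosomal protein genes had 54 of 80 above 0 in GV oocytes, with a median of 0.06, and 60 of 80 in eggs, with a median of 0.11. The shares of all genes above 0 were again 53.7% and 53.2%.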
